A study of Mus musculus with 21 samples.

Results

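Muscle labelled CTx was compared with muscle labelled xINJ at day 8 in Foxp3-DTR+ mice, the genotype in which regulatory T cells (Tregs) can be removed with diphtheria toxin. The samples were chosen by title, which gave 3 CTx and 2 xINJ samples, 5 of the 21 in the series. Each is whole tibialis anterior, a muscle of the shin, from male C57BL/6 mice aged 8 weeks, measured on 1 expression array. By the series' design text, cardiotoxin, a snake venom toxin that destroys muscle fibres and spares their stem cells, was injected into the tibialis anterior at day 0. Diphtheria toxin was then given on alternate days until the muscle was taken. Foxp3-DTR- mice received both toxins as well, with 3 CTx and 3 xINJ samples at day 8, and lack the receptor that makes Foxp3-expressing cells sensitive. The labels describe xINJ muscle as injured with cardiotoxin too and do not explain the name, so the name is kept as in the titles, with no meaning read into it. A single Foxp3-DTR+ array at day 0, labelled as control, and a single xINJ array at day 4 are given as levels and entered no test here. Whether each sample is another animal is not in the labels, and a p-value therefore reflects only how far these samples spread, which may be technical.

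A destroyed muscle fibre is rebuilt by satellite cells, which become myoblasts, fuse, and form new fibres that first make embryonic and neonatal forms of the contractile proteins. Macrophages clear the debris and later feed repair, while fibroadipogenic progenitors lay down the collagen scaffold. Tregs are known to gather in injured muscle and to restrain inflammatory cells there. The Foxp3-DTR receptor is carried by Foxp3-expressing cells throughout the body, so the toxin does not act on the Tregs of muscle alone.

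Foxp3, the gene that defines Tregs and drives the toxin receptor, lay near background on all 5 arrays. Its log2 intensities were 6.71, 6.32 and 6.35 in CTx muscle and 6.68 and 6.66 in xINJ muscle, and 6.80 at day 0. The groups overlapped (log2 difference -0.21, adjusted p = 0.416, limma), so these values give no check of depletion. Markers of the mature fast fibre averaged 13.05 to 13.48 in CTx and 13.27 to 13.35 in xINJ muscle, so both groups carry markers of the labelled tissue at a high level. CTx replicate 3 had the lowest of these means. Of the skin keratins, Krt5 and Krt14 fell below the level filter, and Krt10 read 6.91 to 7.37 in CTx and 6.79 to 7.20 in xINJ muscle. The 5 arrays had median intensities from 135.2 to 159.5. Precision is limited by how few arrays there are.

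Of 13278 genes tested, 3353 passed at an adjusted p of 0.05, which is 25.3% of them. In CTx muscle 2223 genes were higher (16.7%) and 1130 were lower (8.51%), with 892 higher and 368 lower by at least 2-fold. Throughout, levels are log2 intensities, differences are CTx minus xINJ on the log2 scale with their standard errors, and a difference of 1 is a 2-fold change. The values of the 2 groups did not overlap for 3959 genes with CTx above (29.8%) and for 2728 with CTx below (20.5%), so the absence of overlap alone says little with samples this few. The smallest p that an exact permutation test can give for 3 against 2 samples is 0.1, and the calls therefore rest on the spread that limma shares over all genes and groups. The balance of calls depended on the scaling. As deposited, 66.3% of called genes were higher in CTx muscle, against 43.5% once each array was centred on its median, which moved the median difference over all genes by -0.17, and 52.9% after a second quantile normalization, which moved it by -0.10. Without xINJ replicate 1 the counts were 1279 higher and 554 lower, and without xINJ replicate 2 they were 1621 higher and 655 lower. Genes named below with a value as higher or lower kept their call under each alternative run, leave-outs and scalings included, unless a sentence says otherwise. This does not extend to members that are only counted in a list; for the tendon genes Comp and Scx the alternatives were not run.

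**Figure D1:**
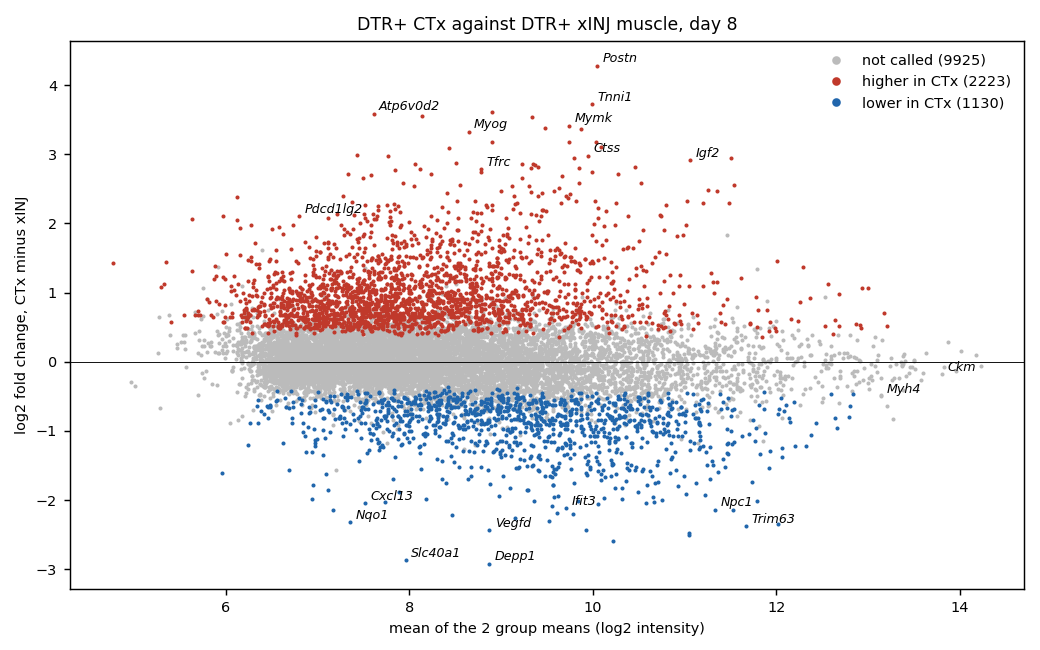
Log2 difference between CTx and xINJ muscle of Foxp3-DTR+ mice at day 8 (vertical axis) against the mean of the 2 group means (horizontal axis, log2 intensity), 1 point a gene, with 2223 genes called higher in red, 1130 called lower in blue and 9925 not called in grey. Postn, Tnni1 and Mymk lie at the top, Depp1, Slc40a1 and Nqo1 at the bottom, and the fibre genes Ckm and Myh4 at the far right close to 0.

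Many genes of new fibre formation were higher in CTx muscle. Of 38 tested genes of regenerating fibre and fusion, 28 rose and 1 fell, with a median difference of 1.47 against 0.04 over all tested genes. The 1 that fell did not pass without CTx replicate 2 or without either xINJ replicate. Myog, the transcription factor that commits myoblasts to differentiate, read 10.35, 10.03 and 10.53 in CTx muscle and 7.09 and 6.88 in xINJ muscle. Every CTx array lay more than 2 units above both xINJ arrays (3.32 ± 0.22, adjusted p = 1.33e-08, limma). Mymk, the membrane activator of myoblast fusion, read 11.37, 11.23 and 11.74 against 8.03 and 8.03, a 10.7-fold difference (3.41 ± 0.29, adjusted p = 1.32e-07, limma). Myh8, the neonatal myosin heavy chain, was at 11.55, 11.45 and 11.88 against 8.92 and 7.97. Actc1, the cardiac actin used by developing fibres, was at 12.92 to 13.02 on the 3 CTx arrays against 9.99 and 10.08, with little spread in either group. Myod1, which acts in myoblasts upstream of Myog, spread more widely, with a CTx mean of 10.55 ± 0.53 (SD, n = 3) against 7.82 and 8.90 (2.19 ± 0.32, adjusted p = 6.09e-05, limma). Pax7, the marker of satellite cells, did not pass (0.44, adjusted p = 0.117, limma). In RNA from whole muscle, fewer cells of a type and less RNA per cell cannot be told apart.

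The xINJ muscle of the earlier day did not sit at the day 8 level for these genes. The single Foxp3-DTR+ xINJ array at day 4 read 9.58 for Myh3, the embryonic myosin, above both xINJ arrays of day 8 (7.19 and 6.99) and above day 0 (6.24). The same array read 10.30 for Mymk, against 7.68 at day 0. With 1 array there is no replicate and no test. Promoters of Myog and of Chrng, described next, are shown because both genes rose and both sequences hold several E-boxes, the letters CANNTG that Myod1 and Myog are known to bind. The sequences are RefSeq's, build GRCm38.p6, plus strand, 5′ to 3′, with E-boxes in capitals. The Myog sequence is chr1:134289841-134290003, bases 163 to 1 before the transcription start, and the Chrng sequence is chr1:87205631-87205766, bases 180 to 45 before it.
Myog: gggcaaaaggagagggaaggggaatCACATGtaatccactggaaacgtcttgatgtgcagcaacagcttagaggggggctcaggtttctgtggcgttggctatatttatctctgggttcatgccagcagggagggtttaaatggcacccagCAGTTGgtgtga
Chrng: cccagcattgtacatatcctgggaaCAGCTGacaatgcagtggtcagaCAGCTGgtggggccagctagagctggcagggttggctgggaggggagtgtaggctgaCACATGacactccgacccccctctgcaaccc
At least 2 E-boxes lay in the 300-base promoter window, read on both strands, of 34.4% of the 10548 tested genes with a RefSeq promoter, 38.4% of the genes called higher, 34.1% of those called lower and 14 of 28 genes of the regenerating list. These letters are common, and a match is a description of sequence only.

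Genes of the neuromuscular junction, the synapse that a new fibre has to rebuild, were also higher: 13 of 19 tested rose and 0 fell, median 0.91. Some genes, such as Chrna1 and Ncam1, are counted in this list and in that of regenerating fibre. Chrng, the fetal gamma subunit of the acetylcholine receptor, read 9.24, 8.79 and 9.40 in CTx muscle and 7.10 and 7.27 in xINJ muscle (1.96 ± 0.22, adjusted p = 4e-06, limma). The shared alpha subunit Chrna1 was 4.54-fold higher, with CTx levels of 11.15, 11.15 and 11.39 and xINJ levels of 8.92 and 9.18. Chrnd and Chrnb1, the delta and beta subunits, rose by 1.56 and 1.51, and Ache, the enzyme that breaks down acetylcholine, by 1.62. So the fetal subunit and the shared subunits were all higher, with no overlap between groups. The adult subunit Chrne was also higher, by 1.21, but the call was lost without xINJ replicate 1 (1.03, adjusted p = 0.0895, limma). Musk, the receptor kinase that organizes the synapse, had overlapping groups (0.47, adjusted p = 0.134, limma).

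Slow-type contractile genes separated by protein. Of 12 tested, 7 rose and 0 fell, median 1.21. Of the slow troponins, Tnni1 was 13.1-fold higher, Tnnc1 rose by 3.54 and Tnnt1 by 2.33. The slow calcium pump Atp2a2 read 11.76, 11.76 and 11.85 against 9.66 and 9.69 (2.12 ± 0.15, adjusted p = 2.54e-08, limma), and the cardiac calsequestrin Casq2 rose by 2.94. The slow myosin heavy chain Myh7 did not follow, at 7.71, 7.34 and 8.06 against 8.21 and 7.47, nor did the slow light chain Myl3 (-0.65, adjusted p = 0.283, limma). Of 33 fast sarcomere genes 5 rose and 2 fell, median 0.03. The number that rose was 2 without xINJ replicate 1, without xINJ replicate 2, without CTx replicate 1 or with arrays centred, and the number that fell was 0 without CTx replicate 3 or xINJ replicate 1 and 4 with arrays centred. Lmod3, which helps actin filaments to form, read 11.11, 11.06 and 11.13 against 9.91 and 9.77. Acta1 and Myh1, the adult actin and a fast myosin, had overlapping groups. Among 28 calcium handling genes 9 rose and 4 fell. Without xINJ replicate 1 the counts were 4 and 1, and 1 or 2 fell under each other leave-out of these 5 arrays. The fast calsequestrin Casq1 rose by 1.06, while Kcnj2, the inward rectifier potassium channel that sets resting potential, read 7.66, 8.12 and 8.27 against 9.55 and 9.52 and fell by 1.52.

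**Figure D2:**
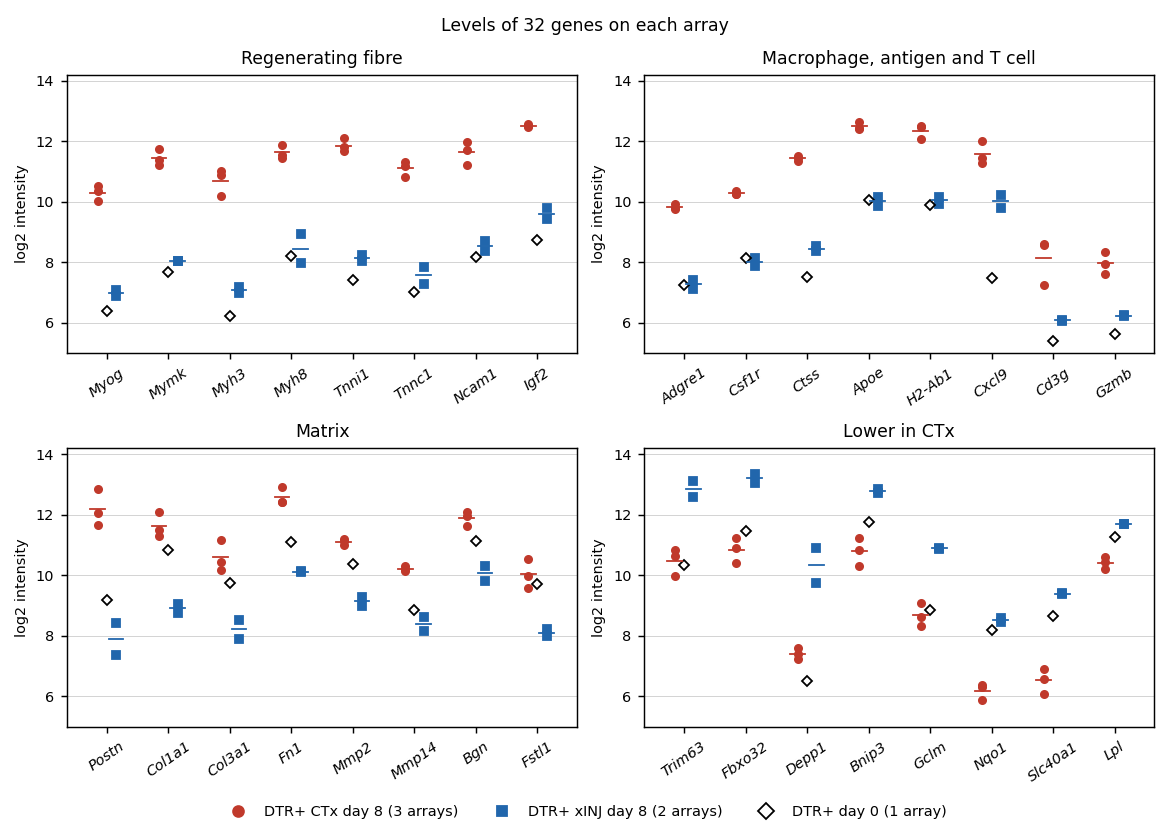
Log2 intensity of 32 genes on each array, with 3 CTx arrays as red circles, 2 xINJ arrays as blue squares, group means as lines and the single day 0 array as an open diamond. In the fibre and macrophage panels the diamonds lie with the xINJ arrays for most genes, in the matrix panel they lie between the groups, and Trim63 and Gclm at day 0 lie with the CTx arrays.

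Macrophage genes rose almost as a block. Of 34 tested pan-macrophage genes 32 rose and 0 fell, median 2.06, and the count was 31 or 32 under each leave-out and scaling. Cybb, the catalytic subunit of the phagocyte oxidase, read 11.00, 11.31 and 11.45 in CTx muscle and 8.23 and 8.66 in xINJ muscle, a 6.98-fold difference (2.80 ± 0.18, adjusted p = 1.33e-08, limma). Csf1r, the receptor for the macrophage growth factor, read 10.36, 10.25 and 10.27 against 7.89 and 8.14 (2.28 ± 0.16, adjusted p = 2.35e-08, limma). Itgam, an integrin shared by monocytes and neutrophils, rose less, by 0.92. Of 34 repair and lipid-handling macrophage genes 23 rose and 1 fell. Apoe, the lipid carrier, was at 12.43, 12.41 and 12.63 against 9.87 and 10.15, and the cholesterol exporters Abca1 and Abcg1 rose by 1.55 and 1.85. Mrc1, the mannose receptor, rose by 1.60 and Gpnmb, a protein of phagocytes that have taken up debris, by 1.95. Of 19 monocyte genes 13 rose, but 8 without xINJ replicate 1 and 8 without xINJ replicate 2. Ccr2, the receptor that draws monocytes from blood, rose by 1.59, whereas Il1b lay near background in both groups (adjusted p = 0.707, limma).

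Lysosomal genes were mostly higher. Of 28 tested 15 rose and 3 fell, where 16.7% of all tested genes rose and 8.51% fell. Ctss, a cathepsin that trims antigens, read 11.45, 11.51 and 11.34 against 8.37 and 8.54 (2.98 ± 0.30, adjusted p = 8.76e-07, limma). Atp6v0d2, a proton pump subunit of macrophages and osteoclasts, was at least 6.63-fold higher, since both xINJ arrays (5.75 and 5.89) lay below the level filter while CTx arrays read 9.38, 9.97 and 8.86. Lgmn, Ctsh, Lipa and Npc2 rose by 2.10, 2.24, 1.76 and 1.53. Npc1, the membrane partner of Npc2 in moving cholesterol out of the lysosome, went the other way, at 9.71, 10.56 and 10.53 against 12.58 and 12.22 (-2.14 ± 0.33, adjusted p = 9.54e-05, limma). At day 0 Npc1 read 10.73, with the CTx arrays.

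Genes for presenting antigen to CD4 T cells rose together. Of 7 tested MHC class II genes 6 rose, median 2.12. H2-Ab1 read 12.51, 12.47 and 12.06 against 9.92 and 10.17 (2.30 ± 0.19, adjusted p = 1.29e-07, limma), Cd74, the invariant chain, rose by 2.29, and Ciita, the factor that switches the group on, by 1.44. Of 13 MHC class I and peptide processing genes 3 rose and 0 fell. H2-Q4, Psmb8 and H2-M3 were those 3, while B2m, the light chain of all class I molecules, and Tap1, a peptide transporter, had overlapping groups. Of 17 complement genes 12 rose and 1 fell, the latter not passing in 4 of the 5 leave-outs of these arrays. C1qa, C1qb and C1qc, the chains of the first component, rose by 2.44, 2.27 and 2.33, Cfb of the alternative pathway by 1.92, and C3ar1, a receptor for a complement fragment, was at 10.65, 11.02 and 10.65 against 7.49 and 8.35.

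Chemokines were mostly higher, with 16 of 27 genes of chemokines and their receptors rising and 1 falling. Ccl8, which draws monocytes, read 10.26, 9.76 and 9.91 against 7.16 and 6.62 (3.09 ± 0.37, adjusted p = 6.96e-06, limma). Cxcl16, the ligand of Cxcr6, read 9.26, 9.69 and 9.82 against 6.73 and 7.01, and Cxcr6 itself, at background in xINJ muscle, was at least 2.45-fold higher. Ccl5 rose by 2.22. The one that fell was Cxcl13, which draws B cells, at 6.41, 6.74 and 6.31 in CTx muscle and 8.47 and 8.60 in xINJ muscle (-2.05 ± 0.31, adjusted p = 7.04e-05, limma). Its day 0 level of 6.73 lay with the CTx arrays.

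T-cell genes rose from a low base. Of 18 tested 16 rose and 0 fell, median 0.94, and of 15 cytotoxic, NK and Th1 genes 13 rose and 0 fell, median 1.03. The arrays held 23 and 24 genes of these lists, and those not tested had failed the level filter. A gene at background elsewhere can pass that filter through the CTx arrays alone, so these shares lean towards rises. Cd3e, part of the T-cell receptor complex, read 7.95, 8.92 and 8.76 in CTx muscle and 7.01 and 7.53 in xINJ muscle (1.28 ± 0.24, adjusted p = 0.000636, limma). Cd8b1, the CD8 beta chain, read 7.41, 8.54 and 8.51 against 6.54 and 6.74. CTx replicate 1 was the lowest of its group for both, and still above both xINJ arrays. Il2rb, a chain of the interleukin 2 receptor, rose by 1.69, Thy1, also made by fibroblasts, by 1.78, and Cd4 by 0.87. Prf1, perforin, had overlapping groups. Ifng, interferon gamma, was at least 1.26-fold higher over an xINJ group at background, but did not pass without xINJ replicate 1 (adjusted p = 0.103, limma). Counted over lists, 11 T-cell genes rose without either xINJ replicate. Of 13 tested Treg genes 5 rose and 0 fell, but 1 rose without xINJ replicate 1, 2 without xINJ replicate 2, and 3 without CTx replicate 3 or after either rescaling. Tigit, a receptor that activated T and NK cells share with Tregs, rose by 0.86, and Ikzf2 read lower in CTx muscle without passing (-0.55, adjusted p = 0.0745, limma). Of 16 dendritic cell genes 11 rose and 0 fell, against 7 without CTx replicate 3 or xINJ replicate 1 and 6 without xINJ replicate 2 or with arrays centred. Only 5 B-cell genes could be tested, of which Cd22 rose, and 5 neutrophil genes, of which Csf3r rose.

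Checkpoint and costimulation genes followed the immune genes, with 10 of 15 rising and 1 falling. The ligands of the receptor Pdcd1 moved apart. Pdcd1lg2 read 8.00, 7.58 and 7.99 in CTx muscle and 5.87 and 5.64, below the level filter, in xINJ muscle, at least 2.27-fold higher (adjusted p = 2.54e-08, limma). Cd274 read 10.03, 10.20 and 11.25 in CTx muscle against 12.66 and 11.32 in xINJ muscle. That fall (-1.50 ± 0.35, adjusted p = 0.00349, limma) rested on xINJ replicate 1, without which it was -0.83 (adjusted p = 0.159). Day 0 read 7.87 for Cd274, below all 5 arrays. Vsir, another inhibitory ligand, rose by 1.34, and Cd86, a costimulatory ligand, was at least 1.25-fold higher.

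Matrix genes rose in 34 of 53 cases with 0 falling, median 0.97. Postn, periostin, was 19.4-fold higher, the largest difference of the comparison, at 12.84, 12.05 and 11.65 against 8.44 and 7.37. Col1a1 read 12.10, 11.29 and 11.48 against 8.76 and 9.05 (2.72 ± 0.26, adjusted p = 5.56e-07, limma). Fn1, fibronectin, rose by 2.47 and Col3a1 by 2.39. The xINJ arrays were below the day 0 array for many of these: day 0 read 10.84 for Col1a1, 11.10 for Fn1 and 12.60 for Sparc, whose xINJ levels were 11.08 and 11.49. Proteases followed, with 17 of 25 rising and 1 falling, among them the gelatinase Mmp2 (1.96), its activator Mmp14 (1.82) and the macrophage elastase Mmp12, at least 3.61-fold higher. Of 20 fibroadipogenic progenitor genes 8 rose, 5 without CTx replicate 3 or without xINJ replicate 2. Pdgfra, the receptor that marks these cells, rose by 1.23. Of 21 basement membrane genes 8 rose, 3 without xINJ replicate 1, with Nid1 at 1.04 and Lamb1 at 0.84. Tendon markers Tnmd, Scx and Comp moved with the matrix, with a mean of 7.45 to 7.88 on CTx arrays, 6.64 to 6.84 on xINJ arrays and 7.84 at day 0. Comp and Scx were higher in CTx muscle, by 1.28 and 0.66, while Tnmd did not pass (0.81, adjusted p = 0.0522, limma). The part of tendon in the matrix result was not tested.

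Among growth signals, Igf1, Igf2 and Fst rose while the inhibitor Mstn fell. Igf1, which drives muscle growth, read 9.67, 9.85 and 9.36 against 6.87 and 7.51 (2.44 ± 0.27, adjusted p = 3.09e-06, limma), with day 0 at 8.92. Igf2, the fetal growth factor that differentiating myoblasts make, read 12.49, 12.57 and 12.48 against 9.79 and 9.42, with day 0 lower still at 8.74. Fst, follistatin, which blocks myostatin, rose by 1.35. Mstn, myostatin, the inhibitor of muscle mass, read 7.47, 8.17 and 8.39 against 9.71 and 10.18 (-1.94 ± 0.32, adjusted p = 0.000181, limma). Igfbp5, Bmp1 and Notch2 also rose, by 1.33, 1.5 and 1.47, and Igf1r did not pass (-0.18, adjusted p = 0.473, limma). Over the whole list of IGF, Notch and TGF-beta signals, 17 of 40 rose and 2 fell, 11 rising without xINJ replicate 1 and 1 falling in 4 of the 5 leave-outs of these arrays. Cell cycle genes rose in 22 of 41 cases, but in 10 to 11 without CTx replicate 3 or without either xINJ replicate, and in 14 with arrays centred. CTx replicate 3 had the highest mean of this list, 7.69 against 7.14 and 7.25. Mki67, a marker of cycling cells, was at least 2.16-fold higher.

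**Figure D3:**
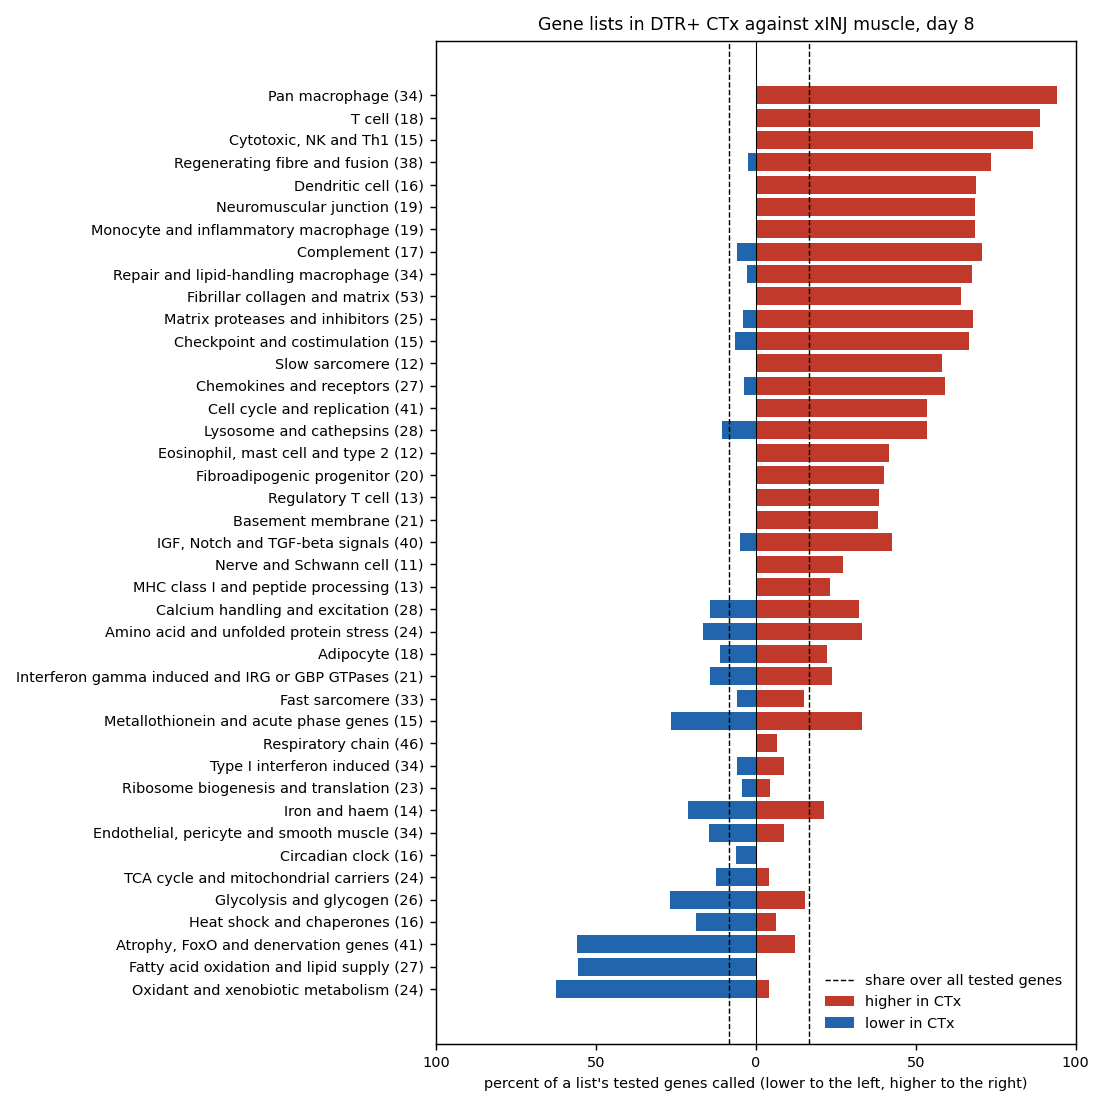
Percent of each list's tested genes that were called higher (red, to the right) or lower (blue, to the left) in CTx muscle, for lists with at least 10 tested genes, with the number tested in brackets and dashed lines at the shares over all tested genes, 16.7% and 8.51%. Pan macrophage, T cell and cytotoxic genes stand far to the right, and the oxidant, atrophy and fatty acid lists far to the left.

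Genes of protein breakdown were among the lower ones. Of 41 tested atrophy, FoxO and denervation genes, 23 fell and 5 rose, median -0.86. Trim63 and Fbxo32, the ubiquitin ligases that mark wasting muscle, read 9.98, 10.62 and 10.84 and 10.41, 11.22 and 10.89 in CTx muscle. In xINJ muscle they read 13.11 and 12.60 for Trim63 and 13.33 and 13.06 for Fbxo32. Trim63 was thus 5.19-fold lower in CTx muscle (-2.38 ± 0.41, adjusted p = 0.000266, limma), and the day 0 array, at 10.34, lay within the CTx range. Bnip3, which tags mitochondria for removal, fell by 2.01 and Map1lc3b, a coat protein of autophagosomes, by 1.19. Klf15 and Cebpd, transcription factors that glucocorticoids are known to induce, fell by 1.55 and 1.76. Sesn1, an inhibitor of mTORC1, read 9.53, 9.98 and 9.90 against 11.75 and 11.35, with 9.36 at day 0. The members that rose include genes known from denervated fibres, Chrna1 (2.18) and Runx1 (1.64), and the nicotinamide riboside kinase Nmrk2 (2.54). For 19 of the 23 that fell, the day 0 array was nearer to the CTx mean than to the xINJ mean, against 529 of all 1130 lower genes (46.8%). For 10 of the 23 the day 0 level was below both means. Depp1, a FoxO target, read 7.40, 7.60 and 7.23 against 10.91 and 9.75, and 6.51 at day 0.

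The promoter of Trim63 is shown because it holds a FoxO element, GTAAACA, in the window searched. It is RefSeq's, GRCm38.p6, chr4:134314901-134314957, plus strand, bases 219 to 163 before the start, with the element in capitals as it reads on this strand.
Trim63: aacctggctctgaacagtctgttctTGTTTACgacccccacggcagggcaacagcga
On both strands, this element was found in 3.04% of promoters of tested genes, 5.29% of those called lower, 2.93% of those called higher, and in 2 of 34 promoters of the atrophy list. A list share from 2 genes says little.

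Genes against oxidants fell alongside. Of 24 tested genes of oxidant and xenobiotic metabolism 15 fell and 1 rose, median -0.91. Nqo1, a quinone reductase, was below the level filter on all 3 CTx arrays (5.89, 6.30 and 6.39) and at 8.58 and 8.46 in xINJ muscle, at least 3.36-fold lower in CTx muscle (adjusted p = 1.05e-05, limma). Gclm and Gclc, the subunits of the enzyme that starts glutathione synthesis, fell by 2.20 and 0.96. Gclm read 8.33, 9.09 and 8.62 against 10.89 and 10.88, with 8.86 at day 0, so xINJ muscle stood above both. Srxn1, which repairs oxidized peroxiredoxins, read 7.74, 7.82 and 7.96 against 9.43 and 9.57 (-1.66 ± 0.18, adjusted p = 2.72e-06, limma), with 8.24 at day 0. Txnrd1, thioredoxin reductase, fell by 0.90 and Cat, catalase, by 1.44. Pir, pirin, read 6.61, 6.85 and 6.69 against 8.80 and 8.68. Nqo1, Gclc, Gclm, Srxn1 and Txnrd1 are known targets of the transcription factor NRF2. Hmox1, another known target, had overlapping groups, at 9.33, 8.78 and 9.08 against 8.45 and 9.90.

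Fuel genes differed by pathway, beside shares of 16.7% higher and 8.51% lower over all tested genes. Of 27 tested genes of fatty acid oxidation and lipid supply 15 fell and 0 rose, median -0.76, with 7 falling without xINJ replicate 1. Lpl, which frees fatty acids from lipoproteins, read 10.21, 10.61 and 10.43 against 11.70 and 11.70 (-1.28 ± 0.20, adjusted p = 0.000129, limma), Cd36, a fatty acid transporter, fell by 1.17 and Echs1, a step of beta-oxidation, by 1.67. Acot2, a mitochondrial thioesterase, read 10.49, 10.90 and 9.98 against 12.78 and 12.41, with 10.90 at day 0. Of 26 glycolysis and glycogen genes 7 fell and 4 rose, with 4 falling without xINJ replicate 1 and 2 rising without CTx replicate 2, CTx replicate 3 or xINJ replicate 2 or with arrays centred. The glycogen genes Gbe1, Ugp2, Phkb and Gyg fell by 1.52, 1.34, 1.24 and 0.81, while Stbd1, which anchors glycogen to membranes, rose by 1.49. The glycolytic enzymes Aldoa and Pfkm did not pass. Of 24 genes of the TCA cycle and mitochondrial carriers 1 rose and 3 fell, median -0.24. Dlat, the 1 that rose, lost the call without CTx replicate 1 or 2, and Mpc1 and Ucp3 of those that fell lost it without CTx replicate 3. Of 46 respiratory chain genes 3 rose and 0 fell, with a median of -0.01. None of the 3 passed without xINJ replicate 1, without xINJ replicate 2 or with arrays centred, and 6 rose after quantile normalization. Lipid synthesis pointed both ways: Scd1, the desaturase, rose by 2.40 and Me1, malic enzyme, read 8.65, 9.10 and 9.34 against 11.14 and 11.04. Gatm, the first enzyme of creatine synthesis, read 10.60, 10.59 and 10.77 against 7.36 and 8.22, a 7.28-fold rise.

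Of 14 tested iron and haem genes 3 rose and 3 fell, and 1 fell without xINJ replicate 2. Slc40a1, ferroportin, the iron exporter, read 6.59, 6.91 and 6.09 in CTx muscle and 9.41 and 9.37 in xINJ muscle, with 8.65 at day 0. Tfrc, the transferrin receptor that takes iron up, read 10.46, 10.14 and 9.91 against 7.53 and 7.26 (2.78 ± 0.42, adjusted p = 6.87e-05, limma). For Tfrc the day 0 array, at 10.74, stood above all 5 arrays, and for Slc40a1 it was nearer to xINJ muscle. Trf, transferrin, rose by 1.84.

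Stress genes went both ways. Of 24 genes of amino acid and unfolded protein stress 8 rose and 4 fell, with 5 rising without either xINJ replicate. Atf4, the factor that directs the amino acid response, read 8.34, 8.46 and 8.45 against 9.40 and 9.30 (-0.93 ± 0.13, adjusted p = 3e-05, limma), and Chac1, which degrades glutathione, fell by 2.44. Asns and Psat1, which make asparagine and serine, rose by 1.11 and 1.05, and Atf3 by 1.79. Dnajb9 and Herpud1 of the endoplasmic reticulum fell by 1.63 and 0.86, while Pdia4, a disulfide isomerase there, rose by 1.26. With arrays centred or quantile normalized 7 of the list fell.

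Few interferon genes differed between the groups. Of 34 type I interferon genes 3 rose and 2 fell, and of 21 interferon gamma genes 5 rose and 3 fell, medians 0.18 and -0.05. Of the type I genes that rose, Ddx58 kept the call, and 1 rose without CTx replicate 3, without xINJ replicate 2 or with arrays centred. The type I genes that fell became 4 without CTx replicate 3 and 1 without xINJ replicate 1, and 0 interferon gamma genes fell without xINJ replicate 1. Both groups stood above day 0: the mean of the interferon gamma list was 9.48, 9.59 and 9.99 on CTx arrays, 9.74 and 9.35 on xINJ arrays and 7.56 at day 0. Cxcl9, a T-cell attractant, read 11.28, 11.43 and 12.02 against 10.23 and 9.81, with 7.47 at day 0 (1.55 ± 0.33, adjusted p = 0.00151, limma). Ifit3, which is made in response to interferon and viral RNA, read 8.33, 8.93 and 8.68 in CTx muscle and 11.52 and 10.01 in xINJ muscle, the reverse order. That fall of 2.12 was carried in part by xINJ replicate 1, without which it was -1.37 (adjusted p = 0.00669, limma). Ifit1 read 7.65, 7.71 and 8.85 against 10.27 in xINJ replicate 1 and an xINJ mean of 9.64, and lost the call without that array (-0.93, adjusted p = 0.202, limma). Other interferon genes were shared: Irf7 read 8.56, 8.60 and 9.55 against 9.37 and 8.56. Of the interferon gamma genes, the GTPases Gbp7 and Irgm1 were lower in CTx muscle, as was Cd274, described above, and both lost the call without xINJ replicate 1 (-0.83, adjusted p = 0.186, and -0.22, adjusted p = 0.713, limma). Irgm1 also lost it without any one CTx replicate and under several other alternatives, and was -1.33 without xINJ replicate 2. The genes higher were Ciita, Gbp8, Ifngr1, Cxcl9 and Cxcl10, of which Cxcl10 (1.72) did not pass without xINJ replicate 1 (1.44, adjusted p = 0.0989, limma) and was 1.13 without CTx replicate 3.

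Promoters of Ifit3 and Ifit1 are shown because both genes were lower in CTx muscle and hold 2 interferon-stimulated response elements each. The element is GAAA followed after any 2 bases by a second GAAA, searched on both strands, and appears in capitals as it reads on the strand printed. The sequences are RefSeq's, GRCm38.p6, plus strand. The Ifit3 sequence is chr19:34583348-34583441, bases 181 to 88 before the start, and the Ifit1 sequence is chr19:34640760-34640838, bases 129 to 51 before it.
Ifit3: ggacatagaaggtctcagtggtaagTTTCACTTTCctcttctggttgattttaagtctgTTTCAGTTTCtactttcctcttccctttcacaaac
Ifit1: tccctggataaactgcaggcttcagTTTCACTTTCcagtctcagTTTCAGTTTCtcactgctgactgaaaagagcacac
The element was found in 3.62% of promoters of tested genes, 3.85% of those called higher, 3.28% of those called lower and 12 of 24 promoters of the type I interferon list, most of which did not pass in either direction.

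The remaining lists had few calls or calls that changed with the samples used. Of 34 endothelial, pericyte and smooth muscle genes 3 rose and 5 fell, 10 falling with arrays centred, 9 after quantile normalization, 3 without CTx replicate 2 or 3 and 1 without xINJ replicate 2. The pericyte gene Rgs5 fell by 1.24 and the smooth muscle actin Acta2 rose by 1.42, while Pecam1 and Cdh5 of endothelium did not pass. Ribosome biogenesis gave 1 higher and 1 lower of 23, with 3 lower after either rescaling and 2 without CTx replicate 3. The 1 lower gene was Eif4ebp1, a brake on translation, at 9.98, 10.31 and 10.20 against 11.71 and 11.93. The clock list gave 1 lower of 16, which did not pass without CTx replicate 1 or without either xINJ replicate, and 4 lower with arrays centred. The heat shock list gave 1 higher and 3 lower of 16, with 1 lower without CTx replicate 3 or xINJ replicate 1. Of 15 metallothionein and acute phase genes 5 rose and 4 fell, with 1 rising without CTx replicate 3, 2 rising and 2 falling without xINJ replicate 1, and 3 rising without xINJ replicate 2 or with arrays centred. Mt1 and Mt2, the metallothioneins, had overlapping groups.

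The day 0 array placed the lists differently. For all 32 pan-macrophage genes that rose, and for 25 of 28 regenerating fibre genes, day 0 was nearer to the xINJ mean. For a gene that rose, a level below both group means is always nearer to xINJ muscle. Day 0 lay below both means for 27 of these 32 and 15 of these 28, against 824 of all 2223 genes called higher. For matrix genes it was nearer to CTx muscle in 21 of 34 and lay between the group means in 28 of 34. Over all genes called higher, 512 of 2223 (23%) were nearer to CTx muscle, and over all tested genes 38.8% were. For the fatty acid genes that fell, day 0 was nearer to xINJ muscle in 11 of 15. These positions rest on 1 array.

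**Figure D4:**
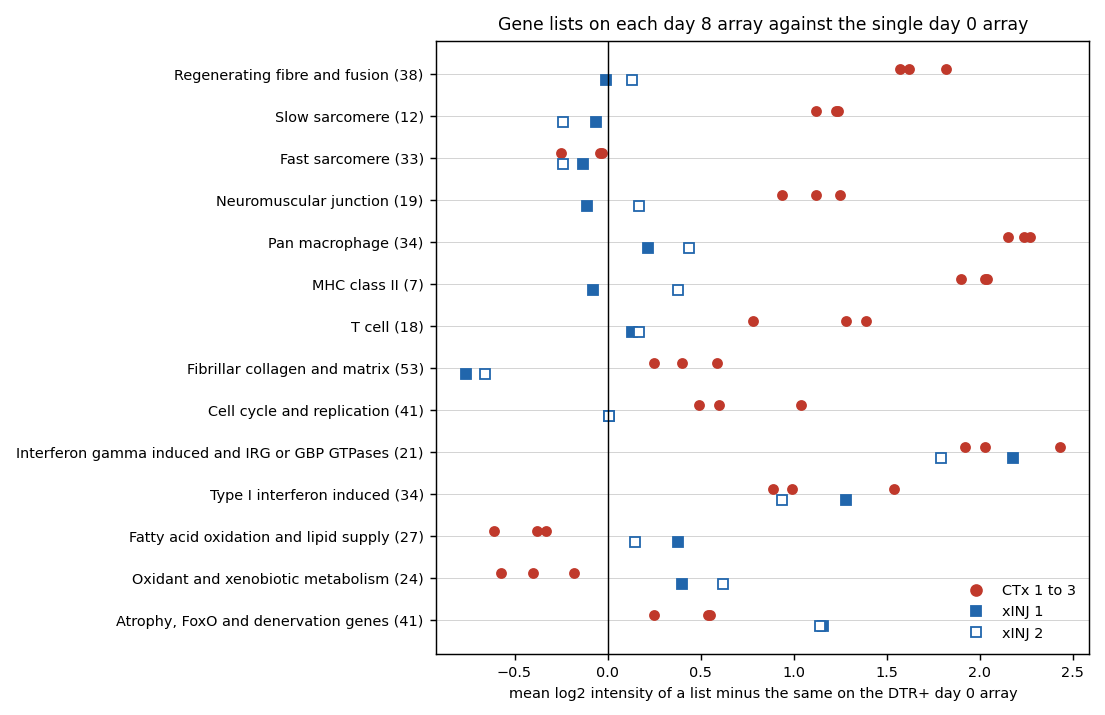
Mean log2 level of 14 gene lists on each array minus that of the single day 0 array (line at 0), with 3 CTx arrays as red circles and the xINJ arrays as filled (replicate 1) and open (replicate 2) blue squares. Both groups lie above 0 for the interferon gamma list, CTx and xINJ lie on either side of 0 for matrix genes, and xINJ lies above CTx for atrophy, oxidant and fatty acid genes.

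Whether these differences belong to Treg-depleted muscle was tested as the difference of the CTx and xINJ contrasts between Foxp3-DTR+ and Foxp3-DTR- mice at day 8. It passed for 31 genes, 14 with the higher value in Foxp3-DTR+ (0.105% of genes tested) and 17 with the lower (0.128%), while 863 reached an unadjusted p of 0.05. The count fell to 6 without Foxp3-DTR+ xINJ replicate 1 and lay between 13 and 31 under the other leave-outs. It was under 31 by more than 1.5 times without Foxp3-DTR+ CTx replicate 2 or xINJ replicate 2 (17 each), without each Foxp3-DTR- CTx replicate (14, 15 and 14), and without Foxp3-DTR- xINJ replicate 1 (15) or 3 (13). In Foxp3-DTR- mice alone 1378 genes were higher (10.4%) and 421 lower (3.17%) in CTx muscle, including 31 of 34 pan-macrophage, 25 of 38 regenerating fibre and 30 of 53 matrix genes, of which none passed the difference. T-cell genes passed in 2 of 18 and cytotoxic genes in 5 of 15 cases in Foxp3-DTR- mice. The difference passed for none of them either, so a distinction between genotypes was not shown for these lists. Likeness was not shown either. The median genotype difference was 0.67 for T-cell and 0.78 for cytotoxic genes. It was 0.09 for pan-macrophage, 0.16 for regenerating fibre and 0.1 for matrix genes. Outside these lists it was -0.84 for type I interferon genes and -0.64 for atrophy genes. Of 34 type I interferon genes 19 rose and 0 fell in Foxp3-DTR- mice, with a median of 0.73 against 0.18 in Foxp3-DTR+ mice. The difference passed for 2 of them, Ifit3 and Ifit1.

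The genes that passed differed in which group stood apart. Both contrasts below share samples with the main one, and values are therefore given side by side. Ifit3 had the largest difference (-3.71 ± 0.44, adjusted p = 0.000646, limma). In Foxp3-DTR- mice it was 9.16 ± 0.20 (SD, n = 3) in CTx and 7.56 ± 0.20 (SD, n = 3) in xINJ muscle, a rise of 1.60, where Foxp3-DTR+ mice showed a fall. Vegfd, a growth factor for lymphatic vessels, read 7.81, 7.83 and 7.31 in CTx and 9.90 and 10.28 in xINJ muscle of Foxp3-DTR+ mice. In Foxp3-DTR- mice Vegfd was 7.48 ± 0.17 (SD, n = 3) and 7.90 ± 0.24 (SD, n = 3), so xINJ muscle of Foxp3-DTR+ mice stood alone (difference -2.02 ± 0.25, adjusted p = 0.00103, limma). Gclm and Srxn1 of the oxidant list had the same form, at 9.36 ± 0.10 and 8.48 ± 0.07 (SD, n = 3) in Foxp3-DTR- xINJ muscle, with differences of -1.89 and -1.31, both of which lost the call in several leave-outs. Against Foxp3-DTR- xINJ muscle, Ifit3 was higher in Foxp3-DTR+ by 3.20, Vegfd by 2.19, Gclm by 1.52 and Srxn1 by 1.03, while in CTx muscle the genotypes differed by -0.51, 0.17, -0.37 and -0.29. Over all genes, 240 were higher (1.81%) and 107 lower (0.806%) in Foxp3-DTR+ than in Foxp3-DTR- xINJ muscle.

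Other genes that passed were high in Foxp3-DTR+ CTx muscle. Where Foxp3-DTR- muscle lay below the level filter, fitted differences are against background, and minimum folds are given beside them where they were computed. Pdcd1lg2 was 5.69 ± 0.16 (SD, n = 3) in CTx and 5.61 ± 0.10 (SD, n = 3) in xINJ muscle of Foxp3-DTR- mice, both at background, against 8.00, 7.58 and 7.99 in Foxp3-DTR+ CTx muscle (difference 2.01 ± 0.21, adjusted p = 0.000124, limma). Against Foxp3-DTR- CTx muscle it was at least 2.17-fold higher. Chil3, a chitinase-like protein of macrophages, read 8.14, 7.19 and 6.60 in CTx and 4.96 and 4.89 in xINJ muscle, and Arg1, arginase, read 9.06, 8.08 and 7.57 against 6.27 and 6.27. Both were below the level filter in xINJ muscle and in Foxp3-DTR- muscle, and CTx replicate 1 was the highest for both. In CTx muscle of Foxp3-DTR+ mice they were at least 1.49-fold and 2.83-fold higher than in that of Foxp3-DTR- mice. Rnase2a, a ribonuclease of eosinophils, had a CTx mean of 9.94 ± 0.92 (SD, n = 3), with replicate 1 highest at 10.83, against 6.66 and 7.49, where Foxp3-DTR- muscle read 4.40 ± 0.29 and 4.47 ± 0.17 (SD, n = 3), below the level filter. Rnase2a was thus higher in Foxp3-DTR+ than in Foxp3-DTR- mice in both muscles, at least 9.25-fold in CTx and at least 1.31-fold in xINJ muscle. Its difference lost the call without Foxp3-DTR+ xINJ replicate 1 (2.53, adjusted p = 0.198, limma) or CTx replicate 2 (2.92, adjusted p = 0.0508, limma). Those of Chil3 and Arg1 lost it without either Foxp3-DTR+ xINJ replicate, with values of 2.49 and 2.42 for Chil3 and 2.06 and 2.07 for Arg1, and that of Arg1 without CTx replicate 2. Itgax, an integrin of dendritic cells and some macrophages, was 2.86 higher in Foxp3-DTR+ and 1.17 higher in Foxp3-DTR- CTx muscle (difference 1.70 ± 0.28, adjusted p = 0.0135, limma), and the difference did not pass without Foxp3-DTR+ xINJ replicate 1 (1.60, adjusted p = 0.112, limma). For Itgax, xINJ muscle of Foxp3-DTR- mice lay below the level filter, at a mean of 6.39, so the 1.17 is against background. Over all genes, 402 were higher (3.03%) and 87 lower (0.655%) in Foxp3-DTR+ than in Foxp3-DTR- CTx muscle.

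Of the genes with a positive difference, Itgb6 and Dusp10 differed in another way. Itgb6, an integrin subunit, read 10.16, 10.28 and 10.42 in CTx and 8.04 and 8.23 in xINJ muscle of Foxp3-DTR+ mice, but 10.24 ± 0.22 and 9.91 ± 0.64 (SD, n = 3) in Foxp3-DTR- mice and 10.42 at day 0. Its level in Foxp3-DTR+ xINJ muscle was therefore the one that stood apart, at -1.77 against Foxp3-DTR- xINJ muscle. Dusp10, a phosphatase of stress kinases, was likewise at -1.57 there. Both differences lost the call in several leave-outs.

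**Figure D5:**
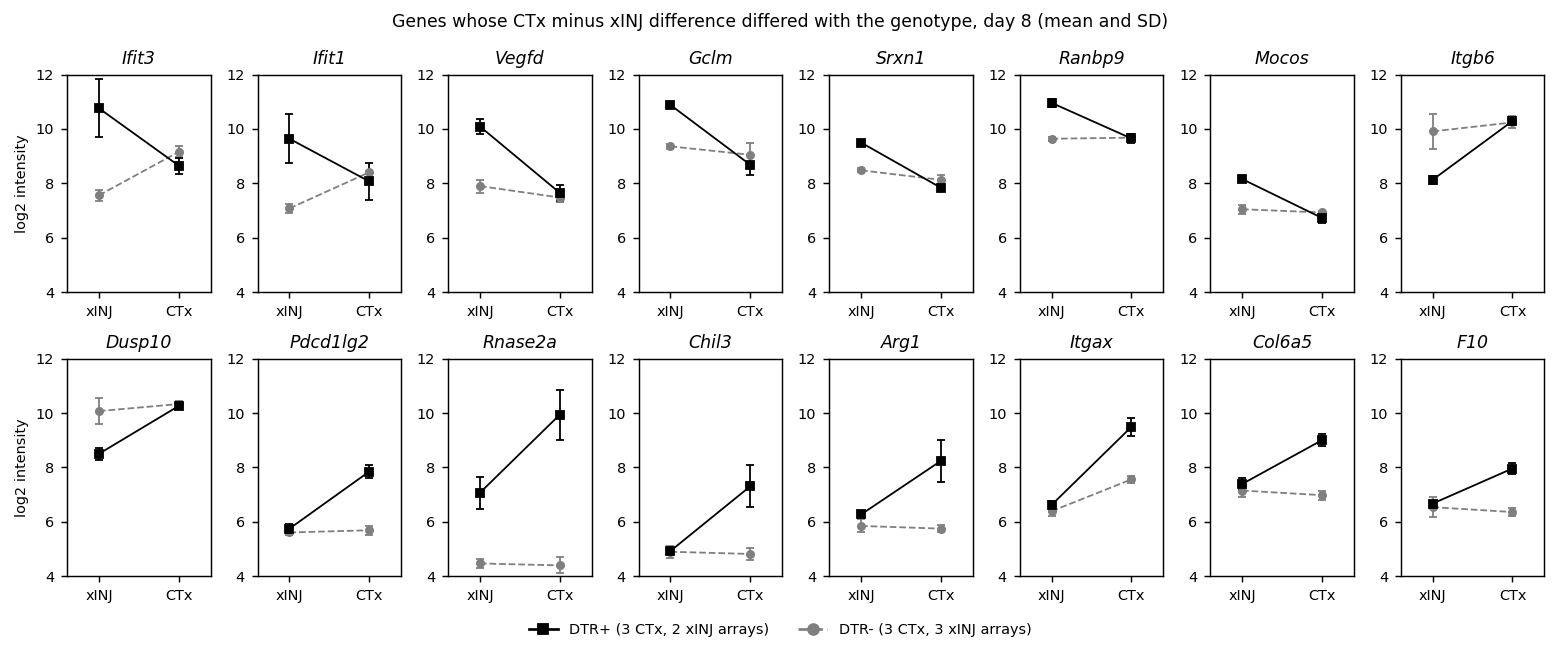
Mean log2 intensity and SD of 16 genes in CTx and xINJ muscle at day 8, for Foxp3-DTR+ mice (3 CTx and 2 xINJ samples) and Foxp3-DTR- mice (3 and 3). Ifit3, Ifit1, Vegfd and Gclm stand high in Foxp3-DTR+ xINJ muscle, Pdcd1lg2, Chil3 and Arg1 in Foxp3-DTR+ CTx muscle, and Itgb6 and Dusp10 are low in Foxp3-DTR+ xINJ muscle.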

How the data were processed

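Total RNA of 21 muscles was measured on Affymetrix Mouse Gene 1.0 ST arrays. The deposited table gives a linear intensity for each probe set, which the submitters' processing notes credit to RMA run by the authors in Affymetrix Power Tools. Versions of these tools, and how probe sets were defined, were not given in the sources used here. Log2 was taken here.

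Of 24922 probe sets, 21425 had 1 gene symbol, 1399 had several and 2098 were not listed in the platform annotation. Where several probe sets shared a symbol, as for 921 genes, only that of highest mean level was kept, giving 19752 genes. Testing was limited to the 13278 genes that exceeded the 40th percentile of an array (log2 6.62 to 6.84) in 2 or more arrays. Genes at background elsewhere could pass through the CTx arrays alone, so counts in lists of low genes lean towards rises. The deposited arrays did not share 1 distribution, so 2 rescalings were tried.

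All 21 samples entered 1 limma 3.58.1 fit in R 4.3.3 with a mean for each of 9 groups, 12 residual and 6.56 prior degrees of freedom. The two-sided p-values were adjusted over all genes by Benjamini-Hochberg, with a threshold of 0.05. The fit was tested on simulated data. No 2 samples held identical values.

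Where a group lay below the level filter on every array, the text states a minimum fold, the brighter group's mean against that level, and a fitted difference is against background. The 45 gene lists come from general knowledge and were chosen, like the comparison, with earlier results of these data known, so no set test was made. Some genes stand in several lists and are counted in each, so the lists are not independent. Named genes are up to 25 per direction with the largest difference and no overlap, the first 4 and up to 8 of the smallest p of each list, up to 12 per direction of the genotype difference, and a fixed set. Krt10, Comp, Scx and Tnmd, and the remaining genes of the genotype difference, were named outside it, after their values were seen. Promoter windows of 300 bases were searched for motifs with no test. Alternatives were the filter, scaling, pseudocount, samples in the fit, replicate block, array weights, moderation, probe set choice and leaving out each replicate.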

Additional observations from a re-analysis of the deposited data

Results flagged for a closer look

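The difference between CTx and xINJ muscle at day 8 depended on the genotype for 31 genes, by the limma test of the difference itself. Values are Foxp3-DTR+ minus Foxp3-DTR- on the log2 scale. Ifit3 (-3.71), Vegfd (-2.02), Mocos (-1.32), Pdcd1lg2 (2.01) and Col6a5 (1.78) kept the call under each of the alternatives run. Itgax (1.70), Ctxn3 (-1.60), D230025D16Rik (-1.65) and Ranbp9 (-1.36) lost it only without Foxp3-DTR+ xINJ replicate 1, and Prune2 (-1.47) only without Foxp3-DTR+ xINJ replicate 2. Each of the other 21 lost it in several leave-outs.

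Among these 21, the positive values were Rnase2a (2.95), Chil3 (2.45), Arg1 (2.07), Itgb6 (1.82), Apol7c (1.75), Dusp10 (1.5), F10 (1.47), Tarm1 (1.30), Otud1 (1.22), Ccl24 (1.15) and A730020M07Rik (1.02). F10, coagulation factor X, did not pass in Foxp3-DTR- mice (-0.18, adjusted p = 0.583, limma), where CTx muscle lay below the level filter. It rose by 1.29 in Foxp3-DTR+ mice. Ccl24, an eosinophil attractant, lay below the level filter in both muscles of Foxp3-DTR- mice, so its -0.15 there gives no direction. In Foxp3-DTR+ mice Ccl24 was at least 1.68-fold higher in CTx than in xINJ muscle. Apol7c and A730020M07Rik lay below the level filter in Foxp3-DTR+ xINJ muscle and in both muscles of Foxp3-DTR- mice. In CTx muscle they were at least 1.66-fold and 1.28-fold higher in Foxp3-DTR+ than in Foxp3-DTR- mice. Otud1, a deubiquitinase, rose in both genotypes, by 0.93 and 2.15.

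The negative values among them were Ifit1 (-2.90), Gclm (-1.89), Lrrc58 (-1.42), Srxn1 (-1.31), Ankrd33b (-1.19), Catsper4 (-1.18), Ctps2 (-1.03), Whamm (-1.01), Usp3 (-0.98) and Spryd7 (-0.92). Catsper4 lay below the level filter in every group but Foxp3-DTR+ xINJ muscle, where it was at least 1.81-fold higher than in Foxp3-DTR- xINJ muscle. Of all 17 genes with a negative value, 16 were higher in Foxp3-DTR+ than in Foxp3-DTR- xINJ muscle by the same fit. Over all tested genes 240 were (1.81%). The exception among the 17 was Spryd7 (0.44, adjusted p = 0.121, limma), which was lower in Foxp3-DTR+ CTx muscle (-0.48, adjusted p = 0.0384, limma). The xINJ values are part of the difference that picked these genes, so the count only describes which group stood apart and is no separate support. The causes of these differences were not tested.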

How the results depend on the processing

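No named gene that passed changed direction under the alternatives run. Of the recomputed gene values, 7348 of the CTx against xINJ values kept their side of the threshold, 274 fell below it and 138 rose past it, and for the genotype difference 469 kept it and 211 fell below it. The 3353 called genes became 1260 with a 2-fold minimum (892 higher, 368 lower) and 1833 to 3132 with 1 replicate left out, of which 1279 to 2287 were higher and 554 to 1081 lower. The lower count was 2057 with arrays centred, 1779 with quantile normalization and 1840 with array weights. The added alternative, chosen after seeing the data, left out the Foxp3-DTR- xINJ day 4 array whose time tag disagrees with its title and gave 3490. The 31 genes of the genotype difference became 6 to 31 with 1 replicate left out and 460 with array weights.

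Same-numbered CTx and xINJ samples correlated at 0.31 and 0.30 in their deviations in Foxp3-DTR+ mice, and differently numbered ones at -0.31, -0.30, -0.07 and 0.07. With 2 xINJ arrays the xINJ deviations mirror each other, so these values are not independent. In Foxp3-DTR- mice same numbers gave 0.06, 0.02 and 0.34 at day 8 and 0.47, 0.14 and -0.21 at day 4. Different numbers gave -0.35 to 0.19 at day 8 and -0.66 to 0.58 at day 4. The numbers were not taken to pair samples, though pairing was not excluded. The replicate block gave 3346 called genes as a fixed term and 3840 as a random one, and 54 and 73 for the genotype difference; the cause was not tested. The values are limited by the number of xINJ samples, 2, and by the single arrays at day 0 and day 4.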
